A study of Rattus norvegicus with 59 samples.

Results

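The S100 family of small calcium-binding proteins was followed in rat liver after a single metal exposure through 6 genes, S100a8, S100a9, S100a10, S100a11, S100a4 and S100a6. The members were the probe sets whose annotated symbol was 1 of these 6 names. Each gene had 1 probe set, so the members were 6 of the 14217 genes named by a probe set of their own and 6 of the 31042 probe sets on the array. Total RNA of whole liver from male Sprague-Dawley rats was measured on 59 Affymetrix Rat Genome 230 2.0 arrays, 1 liver per array. Exposed rats had received 1 intraperitoneal injection of metal in sterile saline, and control rats sterile saline alone. The Cd exposed groups had received CdCl2 at 1.25 mg/kg, the medium dose, with 4 livers on day 1, 5 on day 3 and 5 on day 7. The Cr exposed groups had received Na2Cr2O7 at the high dose, 20 mg/kg in the labels, with 5 livers on each of days 1, 3 and 7. The methods of the study name another Cr dose in 1 place, so the dose is called high here. Each metal had its own saline controls, 5 livers on each day. The day 1 Cd exposed livers carry the replicate numbers 1, 2, 4 and 5. The study left out 1 day 1 animal whose array grouped with unexposed controls in a principal component analysis. Its liver was then found to hold no accumulated Cd. Values are log2 signals after robust multi-array averaging (RMA), so that a difference of 1 is a 2-fold change. Precision is limited by the number of arrays.

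S100 proteins carry a pair of EF-hand motifs and act mostly as dimers that bind their targets when calcium rises. S100A8 and S100A9 form calprotectin, which neutrophils and monocytes hold in large amounts. Calprotectin binds zinc and manganese, and outside the cell it acts on the receptors Tlr4 and Ager. S100A10 is the partner of annexin A2 and brings plasminogen to the cell surface, and unlike the rest of the family it no longer responds to calcium. S100A11 binds annexin A1. S100A4 binds non-muscle myosin and is abundant in fibroblasts and macrophages, and S100A6, also called calcyclin, binds the calcyclin-binding protein Cacybp.

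All 6 genes lie on chromosome 2 of the rat assembly GRCr8 in RefSeq. S100a8 and S100a9 are direct neighbours there, as are S100a11 and S100a10, and S100a5 lies between S100a4 and S100a6. The RefSeq promoter table held 4 of the 6 genes, without S100a8 and S100a10. The 250 bases before the transcription start are shown for S100a9 (chr2:178490623-178490872, minus strand) and S100a4 (chr2:178388279-178388528, plus strand), because these genes stand for the 2 patterns of variation between livers described below. Both are written 5′ to 3′ in the direction of the gene. Capitals mark matches to the TATA box (TATAAA) and to the C/EBP motif (TTNCNNAA).
S100a9: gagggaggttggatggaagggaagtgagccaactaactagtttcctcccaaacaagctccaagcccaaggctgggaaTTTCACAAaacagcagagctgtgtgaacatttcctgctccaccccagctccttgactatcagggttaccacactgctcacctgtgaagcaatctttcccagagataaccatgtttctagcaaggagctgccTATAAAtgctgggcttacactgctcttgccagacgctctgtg
S100a4: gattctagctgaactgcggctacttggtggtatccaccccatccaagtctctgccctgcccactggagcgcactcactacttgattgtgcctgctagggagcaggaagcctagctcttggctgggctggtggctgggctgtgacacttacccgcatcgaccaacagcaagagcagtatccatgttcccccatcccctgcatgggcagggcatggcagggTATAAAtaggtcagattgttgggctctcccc
S100a9 held a TATA box from 42 to 37 bases before the start and a C/EBP match, TTTCACAA, from 173 to 166 bases before it. S100a4 held a TATA box from 31 to 26 bases before the start and no C/EBP match in this window. With both strands read, the TATA box was found in 12.9% of 33469 promoters of this length and the C/EBP motif in 37.2%. The motifs of STAT factors (TTCNNNGAA), NF-kB, AP-1 (TGANTCA) and the antioxidant response element (TGACNNNGC) had no match in either window. They were found in 7.67%, 0.314%, 6.34% and 10.1% of all promoters, in that order. The NF-kB letters are strict and rare, so that the lack of a match to them tells little about NF-kB sites. TGCNCNC, a looser form of the metal response element core TGCRCNC (R for A or G), was also searched. It matched in 1 place in S100a9, from 100 to 94 bases before the start, and in 3 places in S100a4. The S100a9 match, TGCTCAC, lacks the A or G. Of the S100a4 matches only GAGCGCA, read on the other strand, has it. The looser form was held by 43.4% of all promoters. A match describes letters and is not a bound site.

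Array medians lay between 5.38 and 5.458, the median correlation of an array with the others of its group lay between 0.9864 and 0.9944, and no pair of arrays was identical. The 7 hepatocyte markers measured, among them Alb and Ttr, were at 13.16 or higher in every liver. Their day 1 changes are given with those of other cell types below. A probe set was tested for a metal when its signal was 6 or more in every liver of at least 1 of that metal's 6 groups, which left 12917 probe sets for Cd and 13075 for Cr. For Cd the filter kept 6 S100 genes and for Cr 5. S100a8 was below it after Cr and is given there from the fit of all 31042 probe sets. S100a8 passed for Cd, S100a9 for both metals and S100a4 for Cr only through exposed groups, so shares without the filter are given beside the filtered ones for calls on the members. Calls needed an adjusted p no higher than 0.05 and had no fold threshold.

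On day 1 after Cd, the calprotectin genes S100a8 and S100a9 rose 12.4-fold and 12.5-fold and S100a4 3.02-fold, S100a10 rose 1.81-fold, and S100a6 and S100a11 were not called. Thus 4 of the 6 genes were called higher and 0 lower, where 15.1% of all probe sets tested were called higher. Without the filter 3 of the 6 were called higher against 6.39% of all probe sets. After Cr on day 1, S100a10 rose 3.59-fold, S100a9 2.54-fold and S100a11 1.70-fold, so that 3 of the 5 genes tested were called higher, against 31% of all probe sets. Without the filter, which brings in S100a8, 4 of the 6 were called higher, against 14.8%. On day 3, S100a8, S100a9 and S100a4 were called higher after Cd, against 1.25% of all probe sets (0.541% without the filter), and 0 of the 5 genes tested after Cr, where 0% of all probe sets were called higher. On day 7, 0 genes were called after Cd and 0 after Cr, where 0.0155% and 0.0994% of all probe sets were called higher (0.00644% and 0.0354% without the filter). At these 3 counts of 0 from limma, unadjusted p was under 0.05 for 1 gene on day 7 after Cd, S100a9, for 0 on day 3 after Cr and for 0 on day 7 after Cr, where 8.51%, 8.87% and 11.4% of all probe sets were under it, in that order. Ordinary variances called 0 at each. The day 3 count after Cd was 0 without exposed replicate 1, 3 or 4 or control replicate 3, 4 or 5, with an adjusted p of 0.0503 to 0.0774 for S100a9. In RNA of whole liver, a change in the number of cells of a type and a change in RNA per cell cannot be told apart.

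**Figure D1:**
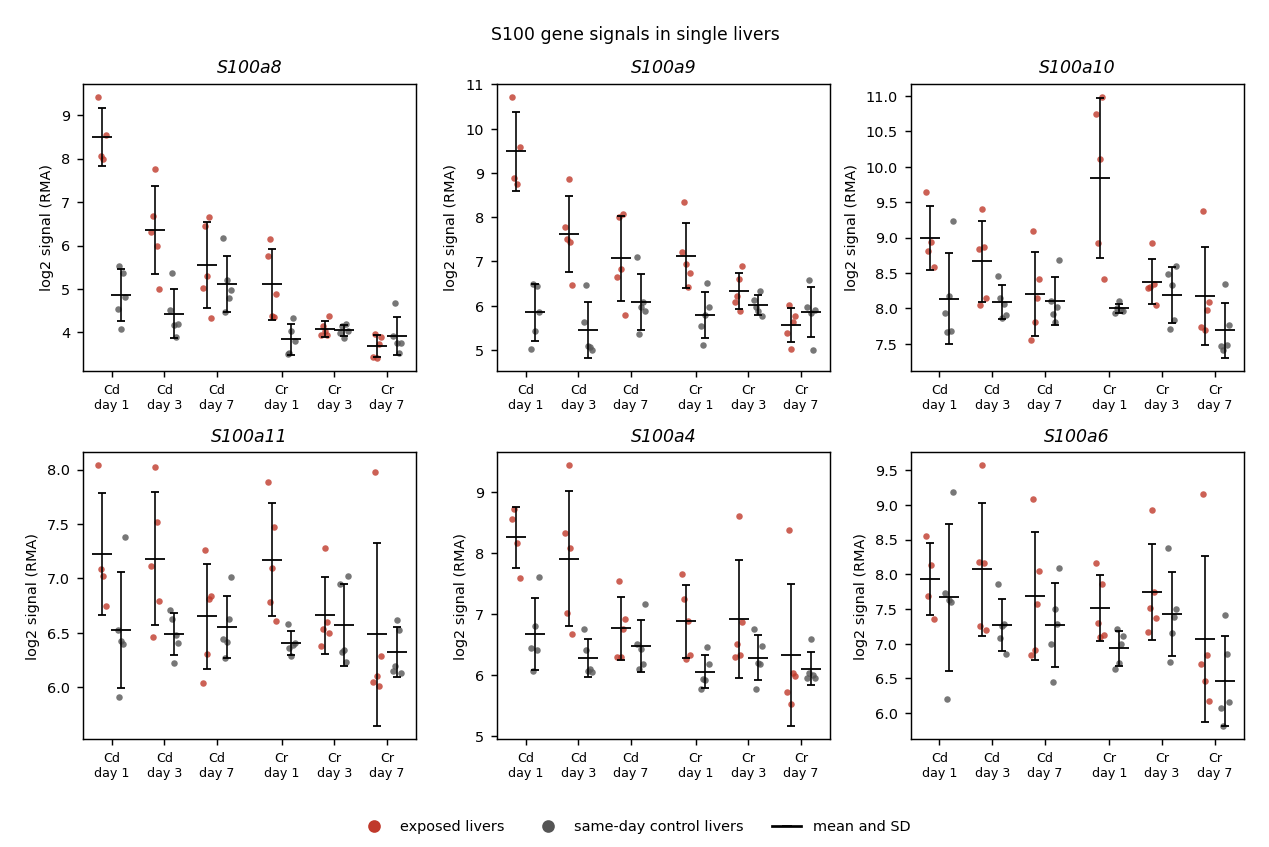
Log2 RMA signal of each S100 gene in single livers, with exposed livers left of the same-day control livers for each metal and day, and bars for the mean and SD. On day 1 after Cd the 4 exposed livers lay at 7.98 to 9.42 for S100a8, above the 5 control livers at 4.09 to 5.53. For S100a10 on day 1 after Cr the 5 exposed livers lay at 8.41 to 10.99, above the controls at 7.94 to 8.11.

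S100a8 (probe set 1368494_at) had signals of 9.42, 8.06, 7.98 and 8.53 in the day 1 Cd exposed livers and 4.53, 5.53, 4.09, 5.36 and 4.82 in their controls. Every exposed liver lay above every control liver, as for 11% of the probe sets tested (5.74% without the filter). The means were 8.50 ± 0.66 (SD, n = 4) in exposed livers and 4.87 ± 0.59 (SD, n = 5) in controls, a log2 difference of 3.63 (SE 0.48, adjusted p = 2.58e-06). On day 3 the Cd exposed livers had 6.32, 6.68, 7.77, 5.99 and 5.01, against 4.52, 5.36, 4.17, 3.90 and 4.19 in controls. The groups overlapped there, with 1 exposed liver below the highest control. The day 3 difference was 1.92 (SE 0.45, adjusted p = 0.0289). It was not called without any 1 of exposed replicates 1 to 4 or control replicates 3 to 5 (adjusted p = 0.0590 to 0.135). On day 7 the Cd exposed livers ranged from 4.33 to 6.66 and the controls from 4.46 to 6.17, with a log2 difference of 0.43 (SE 0.45, adjusted p = 0.816).

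S100a9 (1387125_at), the partner subunit, had 10.72, 8.88, 8.76 and 9.59 in the day 1 Cd exposed livers and 5.02, 6.48, 5.44, 6.45 and 5.85 in controls. These groups were also separate. The means were 9.49 ± 0.90 (SD, n = 4) and 5.85 ± 0.64 (SD, n = 5), a log2 difference of 3.64 (SE 0.49, adjusted p = 2.95e-06). Replicate 1 was the highest of the exposed livers for both subunits. On day 3 S100a9 had 7.78, 7.50, 8.86, 7.45 and 6.47 in Cd exposed livers and 5.63, 6.47, 5.09, 5.06 and 5.00 in controls. The lowest exposed liver and the highest control liver met at the same rounded signal, and at full precision the groups were separate, as for 2.62% of the probe sets tested (1.53% without the filter). The day 3 difference was 2.17 (SE 0.46, adjusted p = 0.0166). On day 7 Cd exposed livers had 6.65, 8.01, 6.82, 8.07 and 5.79 and controls 7.10, 5.37, 5.98, 6.09 and 5.89. Exposed replicates 2 and 4 lay above every control and the other 3 did not, and the difference of 0.98 was not called (SE 0.46, adjusted p = 0.578).

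The pair also rose on day 1 after Cr. S100a9 had 7.22, 8.35, 6.95, 6.42 and 6.73 in the day 1 Cr exposed livers and 5.55, 5.12, 5.79, 6.52 and 5.97 in controls. Exposed replicate 4 lay below control replicate 4, and the other livers of the groups were separate. The log2 difference was 1.34 (SE 0.30, adjusted p = 0.000476). S100a8 had 5.77, 6.16, 4.39, 4.36 and 4.89 in exposed livers and 3.51, 3.52, 4.04, 4.34 and 3.81 in controls. The groups were separate, as for 7.04% of all probe sets without the filter, though the nearest livers almost met. All signals were low on the scale of the array. Without the filter the S100a8 difference was 1.27 (SE 0.25, adjusted p = 0.000287). On days 3 and 7 after Cr the differences of both genes lay between -0.29 and 0.32, and 0 of the 4 were called.

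Against each other, the day 1 effect of Cd exceeded that of Cr by 2.30 for S100a9 (SE 0.58, adjusted p = 0.00232) and, without the filter, by 2.36 for S100a8 (SE 0.54, adjusted p = 0.00208). The filter for both metals was passed by 12680 probe sets, and 11.2% of them had a Cd effect called above the Cr effect on day 1 (4.63% of all probe sets without the filter). The 2 sets of controls are not the same animals, and the S100a8 controls of all days ranged from 3.90 to 6.17 for Cd and from 3.51 to 4.67 for Cr. Within Cd, the day 1 effect exceeded the day 7 effect by 3.20 for S100a8 (SE 0.66, adjusted p = 0.00157) and by 2.66 for S100a9 (SE 0.67, adjusted p = 0.00836), where 8.59% of probe sets were called in that direction (2.91% without the filter). From day 1 to day 3 the Cd effects differed by 1.71 for S100a8 (SE 0.66, adjusted p = 0.0888) and 1.48 for S100a9 (SE 0.67, adjusted p = 0.156), neither of which was called, against 6.67% of probe sets called in that direction (2.35% without the filter). With pooled controls both passed, S100a8 at 2.15 (adjusted p = 0.0017) and S100a9 at 1.88 (adjusted p = 0.00587), and S100a8 passed with both metals in 1 fit (adjusted p = 0.0282) and without Cd exposed replicate 3 of day 3 (2.06, adjusted p = 0.0295). Within Cr, the day 1 effect exceeded the day 7 effect by 1.63 for S100a9 (SE 0.42, adjusted p = 0.00521) and by 1.5 for S100a8 without the filter (SE 0.35, adjusted p = 0.00579), where 16.6% of probe sets were called in that direction (6.23% without the filter). With both metals in 1 fit the S100a8 difference was not called (adjusted p = 0.0513).

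**Figure D2:**
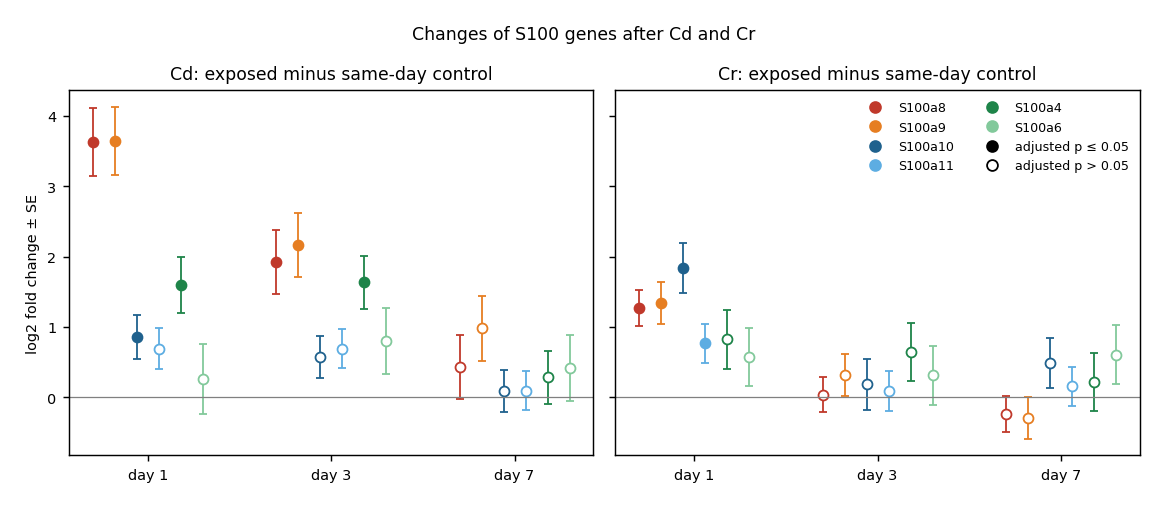
Log2 fold change of each S100 gene, exposed minus same-day control, with its SE, on days 1, 3 and 7 after Cd (left) and Cr (right). Filled points have an adjusted p of 0.05 or less, and S100a8 after Cr is from the fit without the filter. S100a8 and S100a9 lay at 3.63 and 3.64 on day 1 after Cd, and S100a10 at 1.84 was the highest point after Cr.

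S100a10 (1386890_at), the annexin A2 partner, was the member with the highest fold change after Cr. The day 1 Cr exposed livers had 10.75, 8.93, 10.11, 10.99 and 8.41 and their controls 7.94, 8.01, 8.11, 7.97 and 7.96. The groups were separate, as for 14.5% of the probe sets tested (7.04% without the filter), and the exposed livers spread far more widely than the controls, at 9.84 ± 1.13 against 8.0 ± 0.07 (SD, n = 5 each). The log2 difference was 1.84 (SE 0.36, adjusted p = 0.000115). The day 1 Cd exposed livers had 9.64, 8.81, 8.94 and 8.58 and the controls 7.94, 7.67, 8.17, 7.68 and 9.23. Control replicate 5 lay above 3 of the 4 exposed livers, and the difference was 0.86 (SE 0.31, adjusted p = 0.0421). That call held under 5 of 17 alternatives, and without the filter its adjusted p was 0.0713. Without control replicate 5 the difference was 1.13 (adjusted p = 0.00500). Set against each other, the Cd effect on day 1 was lower than the Cr effect by 0.99 on the log2 scale (difference -0.99, 95% interval -1.97 to 0.0036, adjusted p = 0.128), which was not called. Without Cr exposed replicate 5 it was -1.34 and passed (adjusted p = 0.0200).

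By day 3 the S100a10 signals of Cr exposed livers overlapped those of controls. Exposed livers had 8.28, 8.30, 8.92, 8.34 and 8.05 and controls 8.48, 7.71, 8.33, 7.83 and 8.6, and only exposed replicate 3 lay above every control. The day 1 Cr effect exceeded the day 3 effect by 1.66 (SE 0.50, adjusted p = 0.0144), where 18% of probe sets were called in that direction (7.01% without the filter), and the day 7 effect by 1.36 (SE 0.50, adjusted p = 0.0438). The day 7 comparison was called under 11 of 28 alternatives, with an adjusted p of 0.0767 without the filter and 0.0521 with the replicate block. It was lost without any 1 of day 1 control replicates 1 to 5, day 1 exposed replicates 1, 3 and 4, day 7 control replicates 3 and 5 and day 7 exposed replicates 1, 3, 4 and 5 (adjusted p = 0.0526 to 0.104). Over days 3 and 7 the S100a10 differences were 0.18 and 0.49 after Cr and 0.57 and 0.09 after Cd, and 0 of the 4 were called.

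Anxa2, the gene of the annexin that S100A10 binds, was the gene most like S100a10. Their signals correlated at r = 0.94 over the 59 livers, the highest of 8224 genes compared, and at r = 0.92 when the mean of each of the 12 groups was taken away. Livers share their array platform and groups share their exposure, so these are descriptions. On day 1 Anxa2 rose by 1.59 after Cr (SE 0.38, adjusted p = 0.00108), and after Cd its difference was 0.84 (SE 0.32, adjusted p = 0.0533). The 5 Cr exposed livers of day 1 ran in nearly the same order for both genes, with Anxa2 at 10.87, 8.67, 9.80, 10.81 and 7.88. Replicates 1, 4 and 3 were high and replicates 2 and 5 low in each gene.

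S100a11 (1375170_at), the direct neighbour of S100a10 on the chromosome, rose on day 1 after Cr. Exposed livers had 7.89, 6.78, 7.10, 7.47 and 6.61 and controls 6.58, 6.36, 6.29, 6.39 and 6.41. The groups were separate, as for 14.5% of the probe sets tested (7.04% without the filter). The difference was 0.77 (SE 0.28, adjusted p = 0.0233), and its call was lost without exposed replicate 1 (adjusted p = 0.0926) or exposed replicate 4 (adjusted p = 0.0602). The Cd exposed livers of day 1 ranged from 6.75 to 8.04 and the controls from 5.91 to 7.38, a difference of 0.69 (SE 0.29, adjusted p = 0.0799). With control replicate 5 left out, that difference was 0.91 and passed (adjusted p = 0.0206), as it did without exposed replicate 5 (0.85, adjusted p = 0.0450) and with the pooled controls used in the study (0.70, adjusted p = 0.0283). The difference between the metals was -0.07 on day 1, with a 95% interval from -0.91 to 0.76.

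Markers of other cell types moved beside S100a10 and S100a11 on day 1 after Cr. Both cholangiocyte markers tested were higher, Epcam by 1.14 (SE 0.25, adjusted p = 0.00039) and Spp1 by 1.29 (SE 0.37, adjusted p = 0.00474), and the summed signal of 6 such markers ranged from 446 to 1280 in exposed livers and from 330 to 482 in controls. Of 8 stellate cell and fibroblast markers tested, Dcn (1.41, SE 0.48, adjusted p = 0.0163) and Vim (0.73, SE 0.29, adjusted p = 0.0398) were higher and Lrat was lower (-0.31, SE 0.12, adjusted p = 0.0361). The sum of 12 such markers ranged from 5385 to 6613 in exposed livers and from 4759 to 5274 in controls, with no overlap. On that day 50.7% of all probe sets were called in either direction. The part of these cells in the S100 differences was not tested.

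S100a4 (1367846_at), the myosin-binding member, was called on days 1 and 3 after Cd. On day 1 Cd exposed livers had 8.55, 8.72, 8.17 and 7.59 and controls 6.44, 6.07, 6.80, 6.40 and 7.61. Exposed replicate 5 lay just below control replicate 5, and the difference was 1.60 (SE 0.40, adjusted p = 0.00344), called under all 17 alternatives. On day 3 exposed livers had 8.33, 7.02, 9.44, 8.08 and 6.67 and controls 6.76, 6.41, 6.06, 6.10 and 6.04. The exposed livers spread from the control range to the highest S100a4 signal of the study, and the difference was 1.63 (SE 0.37, adjusted p = 0.0239). Without exposed replicate 3 it was 1.25 (adjusted p = 0.103), and it was not called without exposed replicate 1 or 4 or control replicate 3, 4 or 5 either (adjusted p = 0.0650 to 0.0806). On day 1 after Cd the summed signal of 12 stellate cell and fibroblast markers ranged from 4422 to 7428 in exposed livers. The day 1 controls ranged from 3269 to 10564, and 1 of 9 markers tested was called. On day 3 that sum ranged from 6147 to 16852 in exposed livers and from 5372 to 6403 in controls, with 0 of 9 markers tested called. The sum of 10 monocyte markers ranged from 3458 to 9285 in the day 3 exposed livers and from 2934 to 3498 in controls, with 1 of 6 markers tested called. The part of these cells in the result was not tested. The Cd effects on S100a4 on days 1 and 3 differed by -0.04 with a 95% interval from -1.16 to 1.08. After Cr its differences were 0.82, 0.64 and 0.22 on days 1, 3 and 7, and 0 of them were called.

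S100a6 (1367661_at), calcyclin, was called in 0 of the 6 comparisons, with differences between 0.26 and 0.80. Its signal spread widely within groups. Cd exposed livers of day 1 had 8.55, 7.68, 8.13 and 7.36 and the controls 7.73, 6.2, 7.63, 7.60 and 9.18, so that the control group spanned the whole exposed group. On day 7 after Cr, exposed livers had 6.71, 9.15, 6.46, 6.84 and 6.18 and controls 6.08, 5.82, 7.41, 6.85 and 6.16. Exposed replicate 2 alone lay above the controls there, and the difference was 0.08 without it and 0.61 with it.

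Over the 6 genes, the median log2 difference was 1.23 on day 1, 1.22 on day 3 and 0.36 on day 7 after Cd. After Cr it was 1.05, 0.25 and 0.19. The median over all 31042 probe sets lay between -0.03 and 0.00 in the 6 comparisons. In the control livers, 0 of the 6 genes were called as differing between days for either metal, against 0.604% of probe sets for Cd and 0.971% for Cr, and the lowest unadjusted p of the limma test was that of S100a6 in the Cr controls (0.0864). The control medians of the 6 genes, over 30 livers, lay between 4.18 for S100a8 and 7.96 for S100a10, and probe signals do not rank genes by RNA amount.

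The 6 genes fell into 2 sets by how they varied between livers of 1 group. After removal of the group means, S100a8 and S100a9 correlated at r = 0.92 over 59 livers. S100a4, S100a6, S100a10 and S100a11 correlated with each other at r = 0.72 to 0.88. Between the 2 sets r was 0.11 to 0.40. These values are descriptions, and arrays of 1 group share their animals' exposure.

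**Figure D3:**
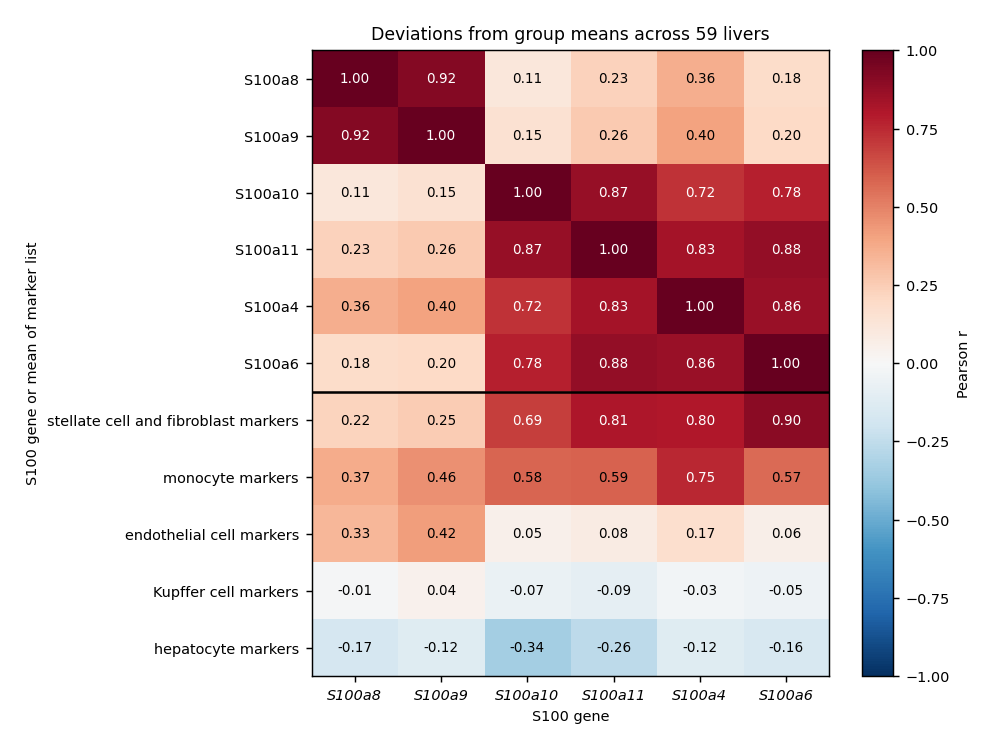
Pearson r across 59 livers of deviations from the 12 group means, between the S100 genes (top 6 rows) and between each gene and the mean deviation of a cell type marker list (bottom 5 rows). S100a8 and S100a9 form a block at 0.92, and the other 4 genes a block at 0.72 to 0.88 that extends to the stellate cell and fibroblast markers.

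S100a4, S100a6, S100a10 and S100a11 followed the markers of stellate cells and fibroblasts. Their deviations correlated with the mean deviation of 8 such markers at r = 0.80, 0.90, 0.69 and 0.81, in that order, against 0.22 for S100a8 and 0.25 for S100a9. With 6 monocyte markers r was 0.75 for S100a4, 0.59 for S100a11, 0.58 for S100a10, 0.57 for S100a6, 0.46 for S100a9 and 0.37 for S100a8. Over all livers, the gene most like S100a4 was Vim (r = 0.90), the intermediate filament gene of mesenchymal cells and 1 of the 8 markers. For S100a6 it was Anxa1 (r = 0.92), and for S100a11 it was Emp1 (r = 0.90), a membrane protein gene. S100a8 was nearest to S100a9 (r = 0.93). S100a8 was not among the 8224 genes compared, and of these S100a9 was most like Cebpd (r = 0.83), a C/EBP transcription factor gene.

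5 livers stood out in S100a6, at 8.93 or higher. Cd control replicate 5 of day 1 had 9.18, Cd exposed replicate 3 of day 3 had 9.57, Cd exposed replicate 2 of day 7 had 9.08, Cr exposed replicate 3 of day 3 had 8.93 and Cr exposed replicate 2 of day 7 had 9.15. The summed linear signals of the 12 stellate cell and fibroblast markers in these livers were 10564, 16852, 11180, 8409 and 13874, in the same order. The group medians of that sum lay between 3671 and 9457. Cd exposed replicates 1 and 4 of day 3 had sums of 9457 and 9506, above the lowest of these 5, with S100a6 at 8.17 and 8.16. 2 of these livers, the Cd control of day 1 and the Cd exposed liver of day 7, also had the highest sums of 5 mesothelial markers, 755 and 1225, and no other liver exceeded 386. The part of these cells in the S100 differences was not tested.

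**Figure D4:**
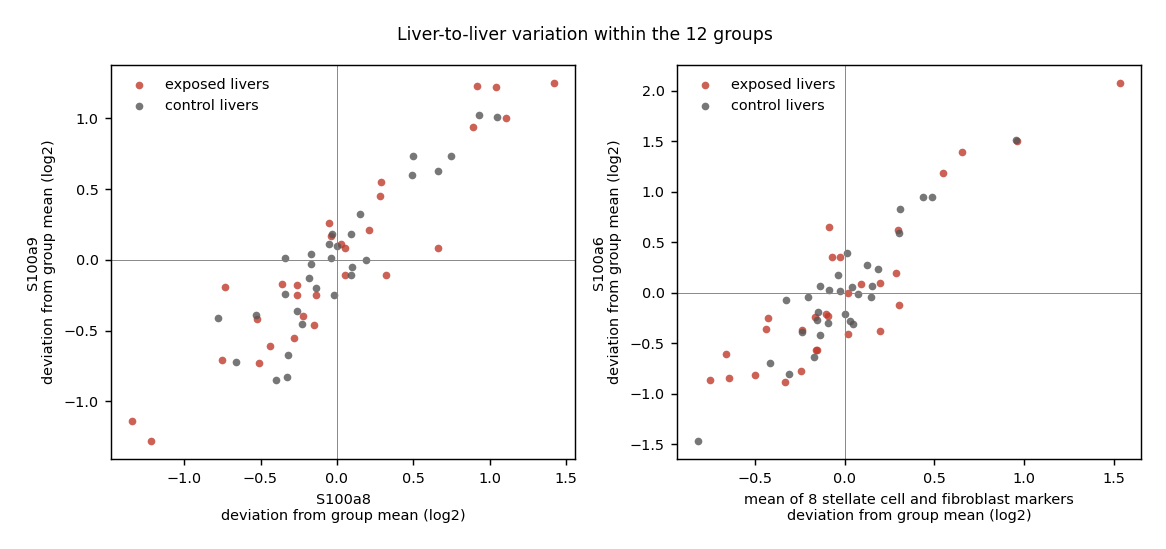
Deviations from the group mean (log2) in 59 livers, S100a9 against S100a8 (left) and S100a6 against the mean of 8 stellate cell and fibroblast markers (right), with exposed and control livers in different colours. The points run along a line in both panels, with r = 0.92 and r = 0.90.

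Markers of immune and endothelial cells moved on day 1 after Cd beside the calprotectin genes, where 15.1% of probe sets tested were called higher and 27.5% in either direction. The 9 neutrophil markers on the array did not pass the filter. Without it 3 of 9 were higher on day 1 after Cd, Il1r2 by 2.77 (SE 0.31, adjusted p = 4.67e-07), Csf3r by 0.88 (SE 0.17, adjusted p = 0.000763) and Mmp8 by 0.28 (SE 0.09, adjusted p = 0.0316), and 0 of 9 in the other 5 comparisons. The markers Camp, Cxcr1, Cxcr2 and Mmp9 were at 4.78 or lower in every liver, which is low on the scale of the array. The summed neutrophil signal ranged from 187 to 469 in day 1 Cd exposed livers and from 129 to 142 in their controls, and on day 3 from 128 to 163 in Cd exposed livers and from 123 to 141 in controls. Without Il1r2 the day 1 sum ranged from 141 to 162 in Cd exposed livers and from 114 to 129 in controls. The sum of all 9 ranged from 125 to 135 in Cr exposed livers of day 1 and from 123 to 134 in controls. Of 5 endothelial cell markers tested, 3 were higher and 0 lower on day 1 after Cd, Fcgr2b by 1.13 (SE 0.24, adjusted p = 0.000882), Lyve1 by 0.87 (SE 0.18, adjusted p = 0.000498) and Eng by 0.41 (SE 0.09, adjusted p = 0.00161). The sum of 7 endothelial markers ranged from 4329 to 6220 in exposed livers and from 2100 to 4478 in controls, and the mean deviation of 5 of them correlated at r = 0.42 with S100a9 and 0.33 with S100a8.

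Of 6 monocyte markers tested, 2 were higher and 3 lower on day 1 after Cd, against 27.5% of probe sets called in either direction. Lyz2 was higher by 1.21 (SE 0.38, adjusted p = 0.0187) and Lgals3 by 0.87 (SE 0.30, adjusted p = 0.0303), while Csf1r was lower, with a difference of -1.20 (SE 0.16, adjusted p = 2.63e-06). The sum of 10 monocyte markers ranged from 4939 to 6546 in exposed livers and from 2647 to 4414 in controls. It adds linear signals, so that the brightest markers weigh most. The median log2 difference of the 6 tested was -0.07, so the list as a whole did not rise. All 9 Kupffer cell markers were lower on day 1 after Cd, Cd5l by most with a difference of -5.17 (SE 0.72, adjusted p = 4.97e-06), and their sum ranged from 284 to 2293 in exposed livers and from 4357 to 6174 in controls. On day 3 after Cd 1 of 6 monocyte markers, Lgals3, was higher, by 1.35 (SE 0.28, adjusted p = 0.0165), and 0 of 9 Kupffer cell markers were called, against 1.42% of probe sets called in either direction. The monocyte sum of day 3 ranged from 3458 to 9285 in Cd exposed livers and from 2934 to 3498 in controls, with 4 of the 5 exposed livers above every control. On day 1 after Cr, 2 of 6 monocyte markers were higher and 1 lower, and 1 of 9 Kupffer cell markers was higher, against 50.7% of probe sets called in either direction. Of 7 hepatocyte markers, 4 were lower and 0 higher on day 1 after Cd, against the same 27.5% of probe sets. Their sum ranged from 113446 to 127093 in exposed livers and from 129016 to 135625 in controls. After Cr on day 1, 2 of the 7 were lower and 1 was higher. The part of these cell types in the S100 changes was not tested.

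The rest of the S100 pathway was read from lists of related genes. Of 8 other S100 genes on the array 2 passed the filter, S100a16 and S100a13. Both were higher on day 1 after Cr, S100a16 by 0.53 (SE 0.07, adjusted p = 1.54e-06) with S100a13 at 0.31 (SE 0.08, adjusted p = 0.00264), and 0 of 2 were called after Cd, with 0.16 and 0.08. Of 16 receptor and signalling genes of extracellular calprotectin on the array 11 passed the filter for each metal. Of these, 2 were higher and 0 lower on day 1 after Cd, Nfkbia, an NF-kB inhibitor (0.87, SE 0.17, adjusted p = 0.00038), and Nfkb1 (0.55, SE 0.14, adjusted p = 0.00416). After Cr 4 were higher and 1 was lower. The lower gene was Cd14, a co-receptor of Tlr4, with a difference of -0.85 (SE 0.20, adjusted p = 0.0011). These counts stand against 27.5% of probe sets called in either direction on day 1 after Cd and 50.7% after Cr.

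Of 12 neutrophil recruitment genes on the array 5 passed the filter for each metal. Of these, 3 were higher on day 1 after each metal, against 15.1% of all probe sets tested called higher after Cd and 31% after Cr. The neutrophil chemokine gene Cxcl1 rose by 4.41 after Cd (SE 0.71, adjusted p = 3.78e-05) and by 2.92 after Cr (SE 0.39, adjusted p = 1.12e-06). Its signals were 11.74, 10.48, 11.37 and 11.20 in day 1 Cd exposed livers and 6.65, 6.0, 6.58, 7.33 and 7.37 in controls. The groups did not overlap, as for 11% of the probe sets tested (5.74% without the filter). The adhesion genes Vcam1 (1.55, SE 0.25, adjusted p = 3.97e-05) and Icam1 (0.79, SE 0.21, adjusted p = 0.00489) were the other 2 after Cd. After Cr they were Icam1 (0.97, SE 0.15, adjusted p = 1.22e-05) and the complement receptor gene C5ar1 (0.61, SE 0.18, adjusted p = 0.00496). On day 3 after Cd 1 of the 5 was higher, C5ar1 (1.02, SE 0.23, adjusted p = 0.0206). On day 7 after Cr 1 was lower, Cxcl1, with signals of 6.04 to 6.88 in exposed livers and 7.75 to 9.5 in controls (difference -2.27, SE 0.39, adjusted p = 0.00728), against 0.275% of probe sets called in either direction. Cr controls had 6.54 to 7.72 on day 1 and 6.73 to 8.95 on day 3, and Cr exposed livers had 6.33 to 6.94 on day 3. The day 7 controls were thus high beside most controls of the other days.

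Of 9 transcription factor genes on the array that are known to act on S100a8 and S100a9, 6 passed the filter for each metal. Of these, Cebpd and Stat3 were called higher on day 1 after both metals. These 2 of 6 stand against 15.1% of all probe sets called higher after Cd and 31% after Cr, so that the share after Cr was near that of all probe sets. Cebpd rose by 2.31 after Cd (SE 0.22, adjusted p = 2.93e-08) and by 0.93 after Cr (SE 0.15, adjusted p = 1.42e-05). Stat3 rose by 1.44 after Cd (SE 0.21, adjusted p = 9.98e-06) and by 1.34 after Cr (SE 0.14, adjusted p = 3.32e-08). On day 3 after Cd 0 of the 6 passed, with Cebpd at 0.68 (SE 0.21, adjusted p = 0.126) and Stat3 at 0.33 (SE 0.20, adjusted p = 0.559).

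Of 11 genes of annexins, other S100 partners and the plasminogen system on the array 10 passed the filter for each metal. Of these, 3 were higher and 2 lower on day 1 after Cd, and 5 were higher and 1 lower after Cr. That stands against 27.5% and 50.7% of all probe sets called in either direction. Myh9, the myosin bound by S100A4, rose by 0.57 after Cd (SE 0.13, adjusted p = 0.00107) and was not called after Cr at 0.19. Plau, which encodes urokinase and activates plasminogen, fell by 0.85 after Cd (SE 0.21, adjusted p = 0.00263) and rose by 0.61 after Cr (SE 0.13, adjusted p = 0.000368). The difference of the metals in Plau was not tested here. Cacybp, the partner of S100A6, was not called after Cd (-0.17, SE 0.19, adjusted p = 0.572) or Cr (0.23, SE 0.10, adjusted p = 0.0654). On day 3, 0 of the 10 were called after either metal, against 1.42% of probe sets called in either direction after Cd.

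Of 9 metal-binding and metal-withholding genes on the array 7 passed the filter for each metal. Of these, 5 were higher and 1 lower on day 1 after Cd, and 4 higher and 0 lower after Cr. That stands against the same 27.5% and 50.7% of all probe sets. One of them, Lcn2, passed the filter for both metals only through exposed groups. Without the filter 6.39% of all probe sets were called higher on day 1 after Cd and 14.8% after Cr. Lcn2, which like calprotectin withholds metal from microbes, rose by 4.97 after Cd (SE 1.47, adjusted p = 0.0126) and by 2.71 after Cr (SE 0.67, adjusted p = 0.00152). Its day 1 Cd controls spread widely, from 4.23 to 10.27, with the exposed livers at 11.96 to 13.91. On day 3 after Cd, Lcn2 was the only gene of this list called, at 5.61 (SE 1.39, adjusted p = 0.0364). Exposed replicate 5 had 5.12 there, within the control range of 4.64 to 7.06, and the other exposed livers had 12.95 to 13.64. Mt2A, a metallothionein gene, rose by 4.43 after Cd (SE 0.73, adjusted p = 4.56e-05) and by 2.02 after Cr (SE 0.47, adjusted p = 0.000745) on day 1, and was not called on day 3 after Cd at 1.56 (SE 0.69, adjusted p = 0.341).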

How the data were processed

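Total RNA of 59 rat livers was hybridised to Affymetrix Rat Genome 230 2.0 arrays. The deposited values are log2 signals per probe set, which the authors made by background adjustment, normalization and summarization with RMA in Partek Genomic Suite. RMA scales all arrays to 1 distribution, so that a change shared by most genes would not be seen. The values were used as deposited, after 57 array control probe sets were left out. In the probe annotation 20826 probe sets have 1 symbol, 436 several and 9780 none.

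The 6 groups of a metal entered 1 model in limma 3.58.1 (R 4.3.3), and each exposed group was compared with its same-day controls, 5 livers each except the 4 Cd exposed livers of day 1. The study's methods instead used the 15 pooled controls of a metal, which was run as an alternative. P-values were adjusted by Benjamini-Hochberg over all probe sets tested. Differences between days were contrasts in these fits, and differences between metals contrasts in 1 fit of 12 groups. Control days were compared with limma's moderated F test. Livers of a group are labelled biological replicates. The fit was tested on simulated data. Tables were read with Python 3.11.15.

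The members and lists were chosen with earlier results of these data known. A listed gene was read on its brightest probe set with 1 symbol. The rule for naming took all members and, of each list and cell type on day 1 after each metal, up to 4 called genes with the largest change. Where none was called it took 2. Not all genes taken by the rule are named in the text. For each member, the 3 genes with the highest correlation over 59 arrays were found among genes tested for both metals. Other genes in the text were chosen after their values were seen. Replicate numbers were not used to pair the livers in the main fit. Over 29 same-numbered pairs of exposed and control livers, deviations from group means correlated at 0.123 on average and at -0.107 at lowest. Exposed and control livers with other numbers correlated at -0.031 on average, and 17 of 29 exposed livers correlated best with their own number. Same-numbered livers were thus more alike on average, and the replicate block was run as an alternative. Other alternatives were no filter, a minimum of 7, both metals in 1 fit, repeated quantile normalization, ordinary variances, array weights and leaving out each liver in turn. The alternatives for differences between days, and the neutrophil sum without Il1r2, were added after seeing the data.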

Additional observations from a re-analysis of the deposited data

Results flagged for a closer look

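In 7 of 72 combinations of gene and group, 1 liver lay far from the rest of its group relative to the range, which chance gives in about 1 of 20 groups. In 4 of the 7 it was the same liver, Cr exposed replicate 2 of day 7, which lay above the other 4 livers of its group in S100a10 (9.38), S100a4 (8.37), S100a6 (9.15) and S100a11 (7.98). Cr exposed replicate 3 of day 3 lay above its group in S100a4 (8.61) and S100a11 (7.28). Cr control replicate 3 of day 7 lay above the other controls in S100a4 (6.59).

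Several exposure effects differed between days or metals by the limma test of the difference itself, all on the log2 scale. The day 1 Cd effect exceeded the day 7 effect in S100a8 (3.20) and S100a9 (2.66). The day 1 Cr effect exceeded the day 3 effect in S100a10 (1.66) and, without the filter, in S100a8 (1.23). It exceeded the day 7 effect in S100a9 (1.63), S100a10 (1.36) and, without the filter, S100a8 (1.503). The day 1 effect of Cd exceeded that of Cr in S100a9 (2.30) and, without the filter, in S100a8 (2.36).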

How the results depend on the processing

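Of 1051 log2 differences of single genes recomputed under alternatives, 961 kept their direction and their side of the threshold. The day 1 rises of S100a8 and S100a9 after Cd and of S100a10 after Cr were called under all alternatives. Those of S100a8 and S100a9 after Cr were called under all but a minimum signal of 7, under which they were not tested. The day 3 count after Cd (3) was 1 with ordinary variances. The day 1 count after Cr (3) was 1 with that minimum, under which S100a10 and S100a6 alone were tested. The count whose Cd effect differed from the Cr effect on day 1 (1) was 2 with array weights, no filter or pooled controls and 0 with a minimum of 7. Day 1 against day 3 gave 2 with pooled controls and 1 with both metals in 1 fit after Cd (0), and 2 with no filter or pooled controls after Cr (1). Day 1 against day 7 after Cr (2) gave 1 with a minimum of 7, ordinary variances or the replicate block. The replicate block removed 2 calls of single genes, both of S100a10, on day 1 after Cd (0.85, adjusted p = 0.0608) and for day 1 against day 7 after Cr (adjusted p = 0.0521), and moved no other count by over 1.5 times. S100a8 for day 1 against day 3 after Cr, from the fit of all probe sets, was not called with array weights (adjusted p = 0.0565), both metals in 1 fit (adjusted p = 0.128) or without Cr exposed replicate 1 of day 1 (adjusted p = 0.0547). Of the same-numbered pairs, 17 of 29 exposed livers correlated best with their own number.

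With 1 liver left out, the counts ranged from 0 to 3 on day 3 after Cd, from 0 to 1 for day 1 against day 3 after Cd, from 1 to 2 for Cd against Cr on day 1, from 1 to 2 for day 1 against day 3 after Cr and from 1 to 3 for day 1 against day 7 after Cr. Signs turned only in uncalled differences. On day 7 after Cd, S100a10 ranged from -0.128 to 0.255 and S100a11 from -0.053 to 0.252, both lowest without exposed replicate 2. On day 7 after Cr, S100a4 ranged from -0.292 to 0.42 and S100a11 from -0.213 to 0.279, both lowest without exposed replicate 2. On day 3 after Cr, S100a11 ranged from -0.063 to 0.205 and S100a8 from -0.032 to 0.077. On day 1 after Cd, S100a6 ranged from -0.103 to 0.642. For Cd against Cr on day 1, S100a6 ranged from -0.679 to 0.066 and S100a11 from -0.345 to 0.14, and S100a11 was 0.006 after repeated quantile normalization. S100a4 for day 1 against day 3 after Cd ranged from -0.346 to 0.344, and was 0.349 with pooled controls and 0.009 with the replicate block. The cause of these changes was not tested. The mean over several probe sets was not run, since each member has 1. The smallest group had 4 livers.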
